A study of Mus musculus with 4 samples.

Results

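The 9 genes described here carry the cyclic AMP (cAMP) signal of fat cells from the membrane to its breakdown: the β-adrenergic receptor genes Adrb1 and Adrb3, the melanocortin receptor genes Mc2r and Mc5r, the accessory protein gene Mrap, the gene of the stimulatory G protein α subunit Gnas, and the phosphodiesterase genes Pde3b, Pde4b and Pde4d. They were chosen by symbol, and all 9 were found among the 22463 gene symbols of the deposited tables. Each gene is represented by its RefSeq transcript with most reads over the 4 libraries. Of the 9, 8 passed the threshold of expression, an RPKM (read count divided by exon length and by mapped reads) above 1 in either Ad-GFP library. Adrb3, Mc2r, Mc5r and Mrap passed it through the Ad-GFP library of day 2 alone, and Adrb1 did not pass it, so counts below are over all 9 genes.

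RNA-Seq was performed on 1 line of C57BL/6J mouse brown preadipocytes, taken from E18.5 embryos that lacked MLL3 and carried floxed Mll4 alleles (Mll3-/-Mll4 f/f), and immortalized with SV40T. MLL3 and MLL4 are methyltransferases of histone H3 lysine 4, and the comparison asked what deletion of Mll4 did to gene expression before and early in adipogenesis. Cells received adenovirus carrying GFP (Ad-GFP, Mll3-/-, called WT in the labels) or Cre recombinase (Ad-Cre, Mll3-/-Mll4-/-), and RNA was taken at day 0, when the confluent cells were about to be induced, or at day 2. All 4 libraries come from cells of the Mll3-/- genotype and derive from a single immortalized line. By day 2 both genotypes had been in a cocktail of insulin, triiodothyronine (T3), dexamethasone, indomethacin and isobutylmethylxanthine (IBMX), the last a general inhibitor of phosphodiesterases. Each of the 4 conditions has 1 library, so no test between conditions was possible, no difference has a replicate check, and every interval below covers counting error only and compares libraries, not conditions.

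As background, catecholamines at β-adrenergic receptors, and melanocortins at their own receptors, act through the stimulatory G protein, whose α subunit turns on adenylyl cyclase. The cAMP formed activates protein kinase A, which in fat cells drives lipolysis and, in brown fat, heat production. Phosphodiesterases end the signal by hydrolysing cAMP, and PDE3B is the enzyme through which insulin restrains lipolysis. MC2R, the receptor of adrenocorticotropic hormone, reaches the cell surface only with the help of MRAP.

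Summed read counts ran from 15831915 to 22099995 per library. Of 9 brown adipocyte markers, 5 exceeded 1 RPKM in some library and their summed RPKM was 26.2 and 1622 with Ad-GFP at day 0 and day 2 and 13.6 and 406 with Ad-Cre. Fabp4, Cebpa and Pparg carried that sum, while Cidea had 0 reads in all 4 libraries, Ucp1 at most 1 read, Dio2 at most 5 and Ppargc1a at most 9, so these 4 thermogenic markers of brown fat were at or near 0. Prdm16, another brown fat marker, had 82 and 424 reads with Ad-GFP and 116 and 105 with Ad-Cre (at most 2.14 RPKM). The 7 mesenchymal and preadipocyte markers summed to 1860 and 222 RPKM with Ad-GFP at day 0 and day 2 and to 1342 and 280 with Ad-Cre, most of it Col1a1 at day 0 (1246 and 1010 RPKM). Single markers differed from that sum: Ebf2 was higher at day 2 in both genotypes (9.70 to 16.1 and 4.77 to 11.1 RPKM), and Pdgfra (73.6 and 9.72 RPKM) and Dlk1 (141 and 10.2 RPKM) were already lower with Ad-Cre at day 0. Endothelial, leukocyte, and sympathetic neuron and Schwann cell lists summed to at most 0.240 RPKM, with Ptprc, Adgre1, Th and Dbh at 0 reads in all 4 libraries, and of the muscle markers only Acta1 exceeded 1 RPKM, with Myog and Pax7 at 0. The day 2 results thus stand beside a summed adipocyte level that was itself lower with Ad-Cre, its part in them was not tested, and in bulk RNA fewer adipocytes and less RNA per cell cannot be told apart. Kmt2d, the gene of MLL4, had 6304, 8530, 6316 and 5595 reads in the libraries of Ad-GFP day 0, Ad-GFP day 2, Ad-Cre day 0 and Ad-Cre day 2, and a count over the whole transcript does not show the loss of floxed exons. Kmt2c, the gene of MLL3, had 522, 1224, 463 and 451 reads in the same order. Such counts do not measure the protein.

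The comparisons that used the Ad-Cre library of day 2 moved most with transcript length and base composition. Against Ad-GFP at day 2, the median log2 ratio was 0.54 over the 491 shortest expressed genes (median 703 exonic bases) and −0.81 over the 491 longest (median 8852), and it was −0.75 over the 491 genes of lowest GC content (median 39.3%) and 0.69 over those of highest (median 61.7%). Between Ad-Cre and Ad-GFP at day 0 the same 4 medians lay between −0.25 and 0.11. Ad-Cre day 2 over day 0 gave 0.859 (shortest) and −0.676 (longest), and −0.465 (lowest GC) and 0.595 (highest). Ad-GFP day 2 over day 0 varied little with length (0.11 and 0.129), but with GC content it ran the other way (0.417 and −0.0997). The Ad-GFP library of day 2 thus also enters the GC trend between the genotypes. Day 2 ratios between the genotypes are therefore also given with this trend removed. Over all expressed genes the median log2 ratio was 0.15 for Ad-GFP day 2 over day 0 and −0.16 for Ad-Cre over Ad-GFP at day 2, and trimmed-mean (TMM) factors brought these to 0.05 and 0.02.

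The windows of 250 bases before the annotated starts of the members were read for the cAMP response element, because these genes pass on the cAMP signal and IBMX was in the medium at day 2. The RefSeq promoter table (GRCm38.p6) held 10 windows for 4 of the 9 genes, Adrb1, Gnas, Pde4b and Pde4d. It does not pair a window with the transcripts counted. The full element TGACGTCA, a palindrome, was in 0 of the 10, and in 1.55% of all 32851 windows. The core TGACG, which lies within the full element and was searched on both strands, was in 5 of the 10, and in 17.8% of all windows. In 2 overlapping Gnas windows it is the same match. A match is a description of the letters, not a site of binding. Shown are the Adrb1 window (chr19:56721867-56722116, plus strand, core beginning 90 bases before the start), the Pde4b window with a match (chr4:102421305-102421554, plus strand, 34 bases before), 1 of the Gnas windows with a match (chr2:174327499-174327748, plus strand, 38 bases before) and, for contrast, that of Pde4d (chr13:108653927-108654176, plus strand, no match), with the core or its reverse complement in capitals.
Adrb1: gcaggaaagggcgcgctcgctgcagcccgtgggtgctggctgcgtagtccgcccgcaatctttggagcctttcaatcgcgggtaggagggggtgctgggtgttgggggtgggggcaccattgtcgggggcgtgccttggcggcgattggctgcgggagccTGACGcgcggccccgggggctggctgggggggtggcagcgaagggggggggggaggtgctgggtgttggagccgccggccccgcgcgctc
Pde4b: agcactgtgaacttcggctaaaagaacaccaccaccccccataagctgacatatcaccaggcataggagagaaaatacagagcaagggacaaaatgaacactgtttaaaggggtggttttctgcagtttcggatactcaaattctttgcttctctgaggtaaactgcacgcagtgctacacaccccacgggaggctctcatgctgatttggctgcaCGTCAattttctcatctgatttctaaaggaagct
Gnas: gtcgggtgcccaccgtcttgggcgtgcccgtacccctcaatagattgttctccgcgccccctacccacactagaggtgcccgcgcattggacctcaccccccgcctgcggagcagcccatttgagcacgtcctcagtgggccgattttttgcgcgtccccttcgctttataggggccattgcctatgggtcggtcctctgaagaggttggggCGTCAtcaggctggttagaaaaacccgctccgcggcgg
Pde4d: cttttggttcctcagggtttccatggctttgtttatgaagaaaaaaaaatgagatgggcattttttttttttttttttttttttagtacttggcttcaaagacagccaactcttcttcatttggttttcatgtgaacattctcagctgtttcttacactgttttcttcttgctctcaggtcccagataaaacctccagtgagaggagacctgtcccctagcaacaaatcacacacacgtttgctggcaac

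Before induction the 4 receptor genes and Mrap had between 0 and 12 reads per library. Adrb3, Mc2r, Mc5r and Mrap passed 1 RPKM at day 2 with Ad-GFP, and of these only Mc5r did so with Ad-Cre, where all 5 had fewer reads at day 2 than with Ad-GFP. Pde3b, at far higher read counts, was also higher at day 2 in both genotypes and lower with Ad-Cre than with Ad-GFP at day 2. Gnas, Pde4b and Pde4d stayed within 2.5-fold between the genotypes on both days, the fold used here as the limit for calling a difference, after the methods of the study. Pde3b also came within it at day 2 once the length and GC trend was removed (log2 −1.16). The plot of levels by library shows the 9 genes side by side.

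**Figure D1:**
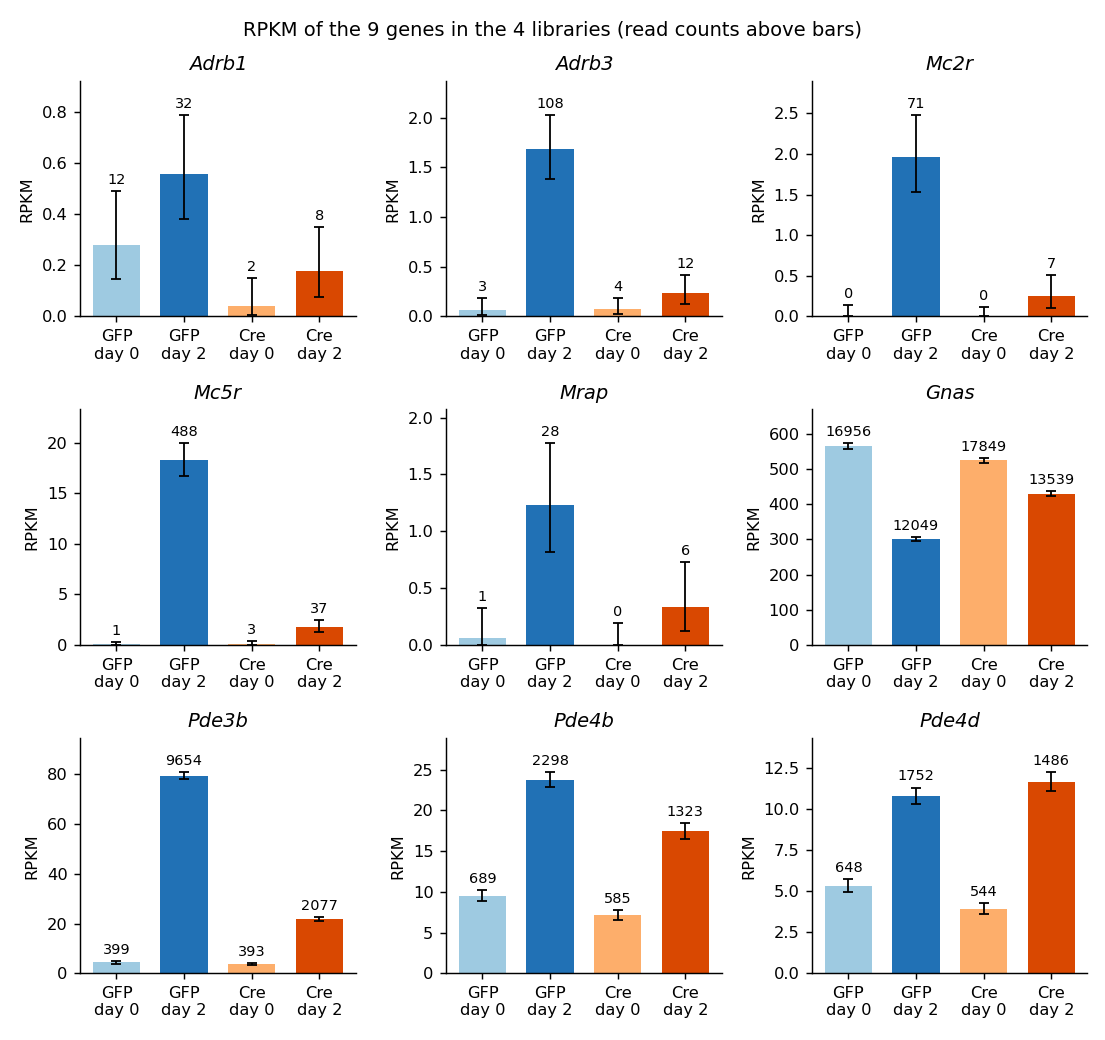
RPKM (vertical axes, from 0, scaled per gene) of the 9 genes in the 4 libraries, 1 per bar; error bars are exact Poisson 95% intervals of the read count, and the number above each bar is that count. The receptor genes, Mrap and Pde3b stand highest with Ad-GFP at day 2 (Mc5r 488 reads, Pde3b 9654), whereas Gnas is lowest there (300.2 RPKM), the last under the deposited scaling.

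Adrb3 encodes the β3-adrenergic receptor of adipocytes, and the files list it as NM_013462 (chr8:28336248-28340060 of NCBI37/mm9, the build of all gene coordinates below, minus strand, 4 exons). All such coordinates span the annotated gene, not the transcript counted. With Ad-GFP Adrb3 had 3 reads at day 0 and 108 at day 2 (0.0624 and 1.68 RPKM). With Ad-Cre it had 4 and 12 reads (0.0734 and 0.238 RPKM). Only the Ad-GFP library of day 2 exceeded 1 RPKM. Day 2 over day 0 gave a log2 ratio of 4.75 with Ad-GFP (95% interval 3.17 to 7.05) and 1.70 with Ad-Cre (−0.02 to 3.79), the latter resting on 4 and 12 reads. At day 2 Adrb3 was 7.06-fold lower with Ad-Cre than with Ad-GFP, a log2 ratio of −2.82 (−3.82 to −1.96). At day 0, with 4 and 3 reads, no difference between genotypes was detectable at this depth (log2 0.23, −2.33 to 3.0).

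Adrb1, the gene of the β1-adrenergic receptor (NM_007419, chr19:56796862-56799352, plus strand, a single exon), had 12 and 32 reads with Ad-GFP at day 0 and day 2 (0.280 and 0.559 RPKM) and 2 and 8 reads with Ad-Cre (0.0412 and 0.178 RPKM). It stayed under 1 RPKM in all 4 libraries. Both Ad-Cre libraries were below both Ad-GFP libraries. Between the genotypes (Ad-Cre over Ad-GFP) its log2 ratio was −2.77 at day 0 (−5.97 to −0.60) and −1.65 at day 2 (−2.98 to −0.50), both past 2.5-fold with the nearer bound within it. With Ad-Cre day 2 over day 0 was past 2.5-fold on 8 reads against 2 (log2 2.11, −0.21 to 5.39), and with Ad-GFP it was not (log2 1.00, 0.0005 to 2.09).

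Among the 6 α-adrenergic receptor genes, Adra1d, an α1 receptor gene, had the highest RPKM in every library, at 19.3 and 22.9 with Ad-GFP at day 0 and day 2 and 72.9 and 18.1 with Ad-Cre. Adrb1 and Adrb3 were below it in all 4 libraries, at most 0.559 and 1.68 RPKM.

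Mc5r, a melanocortin receptor gene, was the receptor of the group with most reads (NM_013596, chr18:68497250-68499377, plus strand). It had 1 read at day 0 and 488 at day 2 with Ad-GFP (0.0500 and 18.3 RPKM). With Ad-Cre it had 3 and 37 reads (0.132 and 1.77 RPKM). The Ad-GFP library of day 2 stood above the other 3, and Ad-Cre at day 2 above both libraries of day 0. Day 2 over day 0 gave a log2 ratio of 8.51 with Ad-GFP, with an interval of 6.03 to 13.8 that reflects the single read at day 0, and of 3.74 with Ad-Cre (2.08 to 6.08). At day 2 Mc5r was 10.3-fold lower with Ad-Cre than with Ad-GFP (log2 −3.37, −3.90 to −2.89), the lowest point ratio among the 9 genes, with an interval that overlapped those of Mc2r, Adrb3, Mrap and Adrb1.

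Mc2r lies beside Mc5r on the opposite strand (NM_008560, chr18:68566561-68588905, minus strand, 67183 bases away). It had 0 reads at day 0 in both genotypes, 71 reads with Ad-GFP at day 2 and 7 with Ad-Cre (1.97 and 0.247 RPKM). A count of 0 allows up to 3 reads, or 0.111 and 0.0979 RPKM in the Ad-GFP and Ad-Cre libraries of day 0. Against that floor Mc2r was 17.7-fold higher at day 2 with Ad-GFP, leaving out the counting error of its 71 reads. The exact 95% interval of that read ratio began at log2 3.81. With Ad-Cre 7 reads against 0 gave 2.53-fold, just past the limit. There the exact interval began at log2 0.64, within the limit. At day 2 it was 7.96-fold lower with Ad-Cre than with Ad-GFP (log2 −2.99, −4.36 to −1.88). Rnmt, the gene on the other side of Mc5r and an mRNA cap methyltransferase, had 388, 758, 451 and 440 reads in the 4 libraries (4.51, 6.59, 4.62 and 4.87 RPKM), a narrow range beside that of both receptors. None of the 4 other genes of the family, Mc1r, Mc3r, Mc4r and Mrap2, passed the threshold of expression.

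Mrap, whose product carries MC2R to the surface (NM_029844, chr16:90738569-90750030, plus strand), had 1 and 28 reads with Ad-GFP at day 0 and day 2 (0.0586 and 1.23 RPKM) and 0 and 6 reads with Ad-Cre (0 and 0.335 RPKM). Only Ad-GFP at day 2 exceeded 1 RPKM. Its log2 ratio of day 2 to day 0 with Ad-GFP was 4.39 (1.79 to 9.74). With Ad-Cre the ratio was 2.16-fold against the floor of 3 reads, and its exact 95% interval began at log2 0.35. At day 2 it was 3.66-fold lower with Ad-Cre (log2 −1.87, −3.44 to −0.57), an interval that reaches within 2.5-fold. Mc2r and Mrap thus both exceeded 1 RPKM with Ad-GFP at day 2 and had at most 1 read at day 0. With Ad-Cre at day 2 they had 7 and 6 reads.

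Gnas was the most abundant of the 9 genes in every library (NM_201616, chr2:174109821-174172245, plus strand). It had 16956 and 12049 reads with Ad-GFP at day 0 and day 2 (565 and 300.2 RPKM) and 17849 and 13539 with Ad-Cre (524 and 430.0 RPKM). Its level was lowest with Ad-GFP at day 2. Both genotypes had less Gnas at day 2 than at day 0, with log2 ratios of −0.91 with Ad-GFP (−0.95 to −0.88) and −0.28 with Ad-Cre (−0.32 to −0.25), neither past 2.5-fold. With the length and GC trend removed these were −0.77 and −0.74. Ad-Cre over Ad-GFP was −0.11 at day 0 (−0.14 to −0.08) and 0.52 at day 2 (0.48 to 0.55), and the latter became −0.04 once the length and GC trend was removed, so its sign rests on that choice. Among 9 G protein α subunit genes, Gnas had the highest RPKM in each library and Gnai2, an inhibitory α subunit gene, the next highest, at 477 and 144 RPKM with Ad-GFP and 474 and 310 with Ad-Cre.

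The files list 9 Gnas transcripts, and 7 of them share most of their reads, so their counts are not separate measurements. NM_201617, with few reads, was past 2.5-fold between the genotypes at day 2, at 31 reads with Ad-GFP and 121 with Ad-Cre (log2 2.32, 1.74 to 2.93). At day 0 it had 21 and 19 reads. NM_019690 had 228 and 261 reads with Ad-GFP at day 0 and day 2 and 172 and 263 with Ad-Cre, within 2.5-fold in every comparison. The annotation places the antisense genes Nespas and AF085738 across Gnas, and as the counting is not stated to use strand, reads of the sense and antisense genes cannot be told apart.

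Pde3b, the phosphodiesterase gene of the insulin response (NM_011055, chr7:121558795-121682765, plus strand, 16 exons), had 399 and 9654 reads with Ad-GFP at day 0 and day 2 (4.39 and 79.5 RPKM). With Ad-Cre it had 393 and 2077 reads (3.81 and 21.8 RPKM). The genotypes were close at day 0 and far apart at day 2. It was 18.1-fold higher at day 2 with Ad-GFP (log2 4.18, 4.03 to 4.33) and 5.72-fold higher with Ad-Cre (log2 2.52, 2.36 to 2.68). Ad-Cre over Ad-GFP was −0.20 on the log2 scale at day 0 (−0.41 to 0.0007) and −1.87 at day 2 (−1.94 to −1.80), which is 3.65-fold lower. Removing the length and GC trend brought the day 2 value to −1.16, still lower with Ad-Cre but within 2.5-fold. The transcript is long (5286 exonic bases) and of low GC content (44.0% in the nearest annotated transcript).

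Pde4b and Pde4d encode cAMP-specific phosphodiesterases of the PDE4 family. Pde4b (NM_001177980, chr4:101760148-102279864, plus strand) had 689 and 2298 reads with Ad-GFP at day 0 and day 2 (9.53 and 23.8 RPKM) and 585 and 1323 with Ad-Cre (7.13 and 17.4 RPKM). Day 2 was higher than day 0 in both genotypes and just short of the limit, at 2.495-fold with Ad-GFP (log2 1.32, 1.20 to 1.44) and 2.45-fold with Ad-Cre (log2 1.29, 1.15 to 1.43). Ad-Cre over Ad-GFP was −0.42 at day 0 (−0.58 to −0.26) and −0.45 at day 2 (−0.55 to −0.35), and with the trend removed the day 2 value was 0.07, the other sign. Removing the trend also took its ratio of day 2 to day 0 with Ad-Cre past the limit (log2 1.68). Of its 5 listed transcripts, 4 had reads and largely shared them.

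Pde4d (NM_011056, chr13:109240142-110743669, plus strand) had 648 and 1752 reads with Ad-GFP at day 0 and day 2 (5.35 and 10.8 RPKM) and 544 and 1486 with Ad-Cre (3.96 and 11.7 RPKM). Day 2 was higher than day 0 in both genotypes, past 2.5-fold with Ad-Cre (2.96-fold, log2 1.56, 1.42 to 1.71) and not with Ad-GFP (2.02-fold, log2 1.02, 0.89 to 1.15). Between the genotypes the log2 ratio was −0.43 at day 0 (−0.60 to −0.27) and 0.11 at day 2 (0.01 to 0.21), or 0.68 with the trend removed. The GC content used in that removal came from an annotated transcript of 4207 bases, whereas the transcript counted has 7049 exonic bases.

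Over 16 genes of cAMP-hydrolysing phosphodiesterases, the summed RPKM was 55.9 and 138 with Ad-GFP at day 0 and day 2 and 46.4 and 78.2 with Ad-Cre, as the stacked plot of phosphodiesterases shows. Pde3b made up 7.84% and 57.6% of that sum with Ad-GFP and 8.21% and 27.8% with Ad-Cre. The length and GC trend was not removed from these sums and shares, and its removal moved the Ad-Cre over Ad-GFP ratios at day 2 upward for Pde3b, Pde4b and Pde4d, as given above. At day 0 the largest share was that of Pde4a, at 28.1% with Ad-GFP and 24.9% with Ad-Cre, and at day 2 it was that of Pde3b in both. Pde4b and Pde4d together with Pde3b were the 3 highest of the 16 at day 2 in both genotypes. Pde4a was 2.99-fold lower at day 2 than at day 0 with Ad-GFP (log2 −1.58, −1.73 to −1.44).

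**Figure D2:**
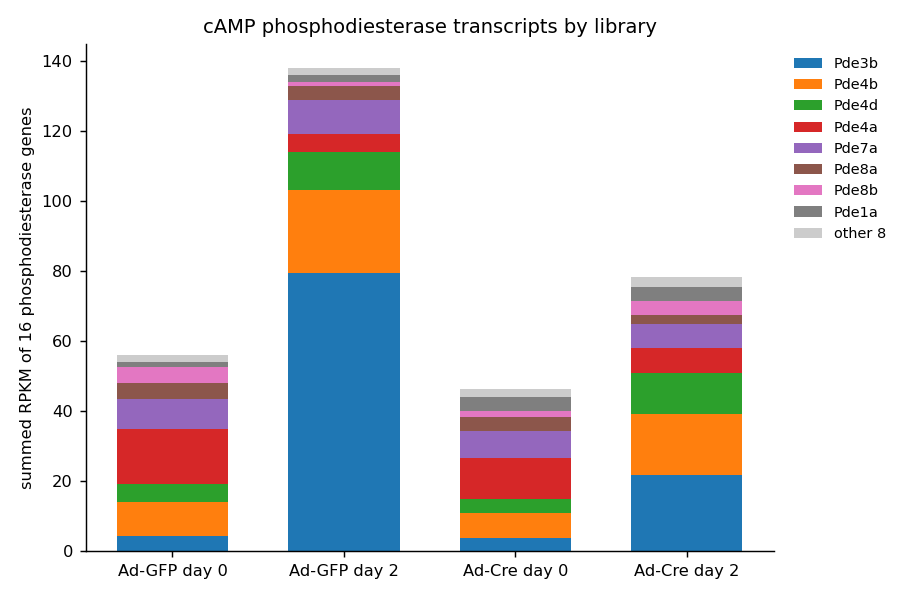
Summed RPKM (vertical axis, from 0) of 16 cAMP phosphodiesterase genes in the 4 libraries, stacked by gene, with the 8 genes of lowest level pooled as other. Pde3b takes 57.6% of the Ad-GFP bar at day 2 and 27.8% of the Ad-Cre bar, and under 10% of both bars at day 0, with the length and GC trend not removed.

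The 9 genes were ordered by level with exact Poisson 95% intervals. With Ad-GFP at day 2 the intervals of Gnas, Pde3b, Pde4b, Mc5r and Pde4d did not overlap, while those of Mc2r (1.54 to 2.48 RPKM), Adrb3 (1.38 to 2.03) and Mrap (0.82 to 1.78) overlapped each other. With Ad-Cre at day 2 Mc5r (1.24 to 2.43) stood above the 4 below it, Mrap, Mc2r, Adrb3 and Adrb1, whose order could not be told at this depth. At day 0 Pde4b, Pde4d and Pde3b followed Gnas in both genotypes, the latter 2 with overlapping intervals with Ad-Cre.

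Counted over the 9 genes, 5 were past the limit upward from day 0 to day 2 with Ad-GFP (Adrb3, Mc2r, Mc5r, Mrap and Pde3b) and 0 were lower. Of the 11541 expressed genes, 8.38% were past the limit upward and 12.7% downward. With Ad-Cre 7 of 9 were higher, the same 5 with Adrb1 and Pde4d, and 0 lower, where the share of expressed genes was 8.66% and 10%. Mrap is counted there because it had 0 reads at day 0. Against the floor of 3 reads it was 2.16-fold higher, which is within the limit. Of these 7, only 3, Mc5r, Pde3b and Pde4d, had at least 20 reads at day 2, and these 3 also kept a ratio past the limit at the nearer bound of the interval.

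**Figure D3:**
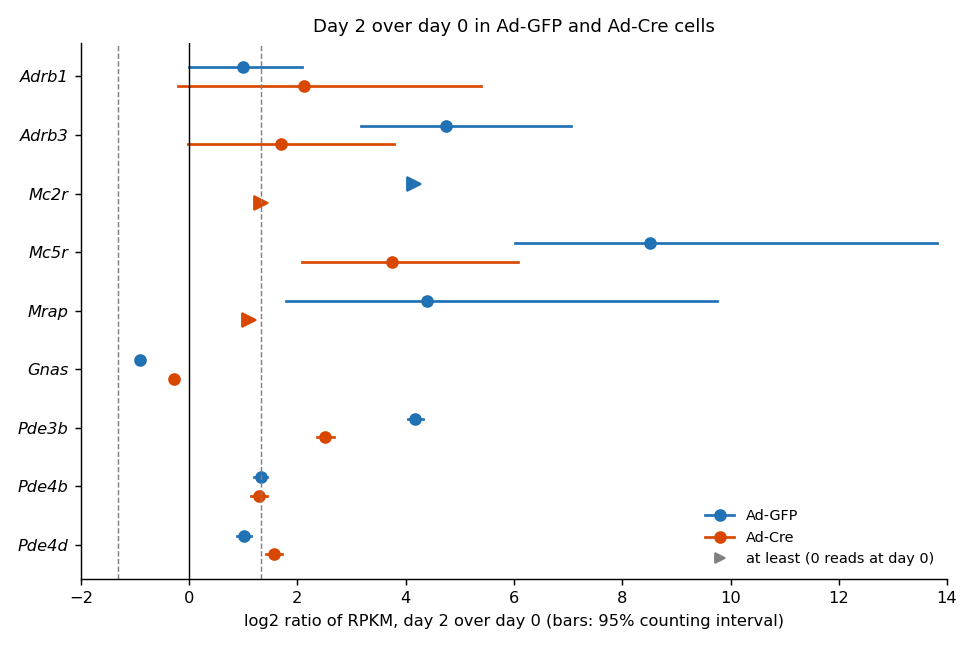
Log2 ratio of RPKM of day 2 over day 0 (horizontal axis) for the 9 genes in Ad-GFP (blue) and Ad-Cre (orange) cells, 1 library per condition. Bars are 95% counting intervals and dashed lines mark 2.5-fold. Triangles are ratios against a floor of 3 reads where day 0 had 0 reads, leaving out the counting error of day 2. Adrb3, Mc5r and Pde3b lie further right with Ad-GFP (4.75, 8.51 and 4.18) than with Ad-Cre (1.70, 3.74 and 2.52), while Pde4b lies at 1.32 and 1.29 and Pde4d lies further right with Ad-Cre.

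At day 0, 1 gene was past the limit upward in Ad-Cre over Ad-GFP cells (Mc5r, 3 reads against 1) and 2 downward (Adrb1, and Mrap at 0 reads against 1), beside 1.27% and 4.12% of expressed genes. All 3 rest on at most 12 reads, and Mc5r and Mrap were at or under the floor of 3 reads in both libraries, so no fold is given for them. At day 2, 6 of 9 were past it downward (Adrb1, Adrb3, Mc2r, Mc5r, Mrap and Pde3b) and 0 upward, beside 10.1% and 8.14% of expressed genes. Adrb3, Mc2r, Mc5r and Pde3b remained past the limit at the nearer bound of the interval, Adrb1 and Mrap did not, and removal of the length and GC trend took Pde3b within it. With that removal the log2 ratio of the other 5 was −2.31 for Adrb1, −3.08 for Adrb3, −2.96 for Mc2r, −3.85 for Mc5r and −2.62 for Mrap, all past the limit. With 1 RPKM added to both sides of each ratio, only Mc5r (−2.80) and Pde3b (−1.82) were past it. The Ad-GFP library of day 2 enters both the day 2 over day 0 ratio and this one, so a high count in it raises the first and lowers the second, and the 2 sets of values are given side by side and not as separate evidence.

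**Figure D4:**
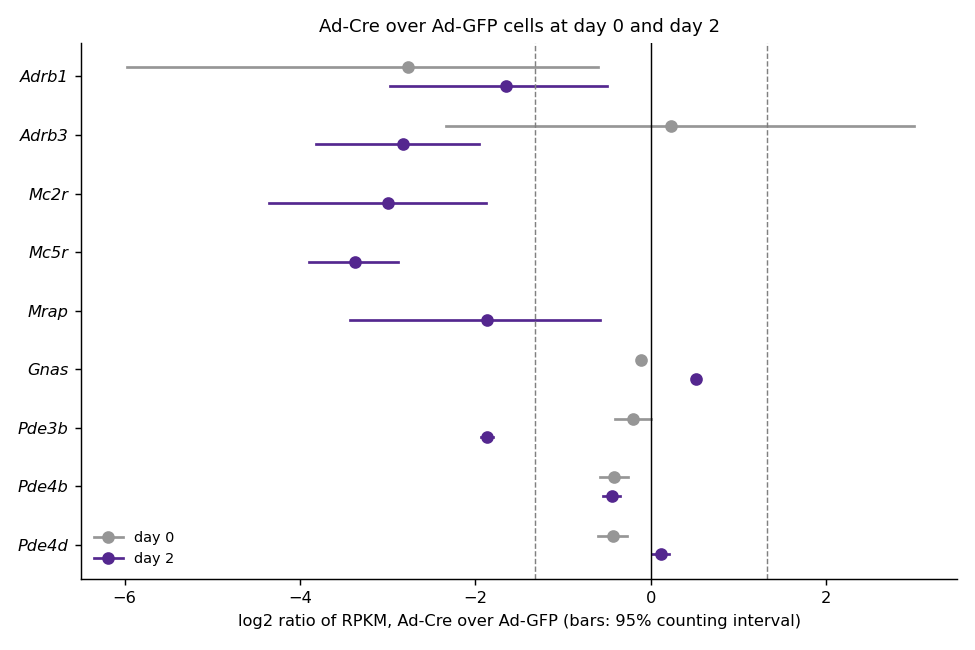
Log2 ratio of RPKM of Ad-Cre over Ad-GFP (horizontal axis) for the 9 genes at day 0 (grey) and day 2 (purple), 1 library per condition; bars are 95% counting intervals and dashed lines mark 2.5-fold, and genes at or under 3 reads in both libraries have no day 0 point. The 5 receptor and accessory genes and Pde3b lie left of the −2.5-fold line at day 2 (Mc5r −3.37, Pde3b −1.87, the last within it at −1.16 after trend removal), and Gnas (0.52) and Pde4b (−0.45) change sign under that removal.

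The difference between the inductions, log2 ratio of day 2 to day 0 with Ad-Cre minus that with Ad-GFP, was computed with a counting interval only. Unlike the exact intervals above, this one is a normal approximation from the read counts of the 4 libraries. It was −1.66 for Pde3b (−1.88 to −1.45), −0.03 for Pde4b (−0.21 to 0.16), 0.55 for Pde4d (0.35 to 0.74) and 0.63 for Gnas (0.58 to 0.67), all on at least 393 reads per library. For Adrb3 it was −3.05 (−5.38 to −0.73) and for Mc5r −4.77 (−8.07 to −1.47), with as few as 3 and 1 reads in a library. At such counts the approximation is poor, so the bounds of these intervals are rough. For Adrb1 the interval ran from −1.31 to 3.55. It was not computed for Mc2r and Mrap, which had 0 reads in a library. Removing the length and GC trend from each induction gave log2 ratios of 4.08 with Ad-GFP and 3.15 with Ad-Cre for Pde3b, 1.19 and 1.68 for Pde4b, and 1.00 and 2.06 for Pde4d, while those of Gnas, above, lay close together.

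Around the 9 genes, 104 further genes in 9 lists of the pathway were counted, from other receptors to cAMP-responsive genes, and 62 were expressed. Day 2 over day 0 with Ad-GFP was past 2.5-fold upward for 9 of the 62 and downward for 13 (14.5% and 21%, beside 8.38% and 12.7% of all expressed genes), and with Ad-Cre for 5 and 8 (8.06% and 12.9%, beside 8.66% and 10%). At day 0, 3 were higher and 5 lower with Ad-Cre than with Ad-GFP (4.84% and 8.06%, beside 1.27% and 4.12%), and at day 2, 8 and 12 (12.9% and 19.4%, beside 8.14% and 10.1%). The median log2 ratio at day 2 was −0.14 over the 62 and −0.16 over all expressed genes. The lists were chosen with earlier results known, and the length and GC trend was not removed from these values.

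Among the adenylyl cyclases, the enzymes that make cAMP, Adcy5 went from 10 to 2345 reads with Ad-GFP and from 20 to 307 with Ad-Cre, and was 5.99-fold lower with Ad-Cre at day 2 (log2 −2.58, −2.76 to −2.41). Adcy9 was 3.85-fold lower there (697 and 142 reads), whereas Adcy7 and Adcy4 were lower at day 2 than at day 0 with Ad-GFP. Prkar2b, a regulatory subunit gene of protein kinase A, had 614 reads at day 0 and 5575 at day 2 with Ad-GFP and 834 with Ad-Cre at day 2 (log2 Ad-Cre over Ad-GFP −2.39), and Prkar1b went the other way, at 70 and 212 reads (log2 1.95). Akap1, an anchor of the kinase, was 3.08-fold lower with Ad-Cre at day 2. Rgs2, a regulator that ends G protein signals, had 38 and 1127 reads with Ad-GFP and 48 and 282 with Ad-Cre.

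Of the CREB family and cAMP-responsive genes, 11 of 16 were expressed, and at day 2 only Nr4a1 was past the limit between the genotypes, higher with Ad-Cre (365 and 982 reads, log2 1.78). It was already higher with Ad-Cre at day 0, within the limit (303 and 839 reads, log2 1.29). Nr4a3, named here after its values were seen, was not counted as expressed, since the threshold uses the Ad-GFP libraries, and had 16 and 52 reads at day 2 (log2 2.05, 1.53 RPKM with Ad-Cre). Per1 was higher at day 2 in both genotypes (709 to 2504 and 1005 to 4167 reads). Among receptors, Ptgir, the prostacyclin receptor gene, was 25.2-fold lower at day 2 than at day 0 with Ad-GFP and 19.2-fold lower with Ad-Cre than with Ad-GFP at day 0. Of the other G protein subunits, Gng11 was 12.2-fold higher and Gnao1 5.13-fold lower with Ad-Cre at day 2.

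**Figure D5:**
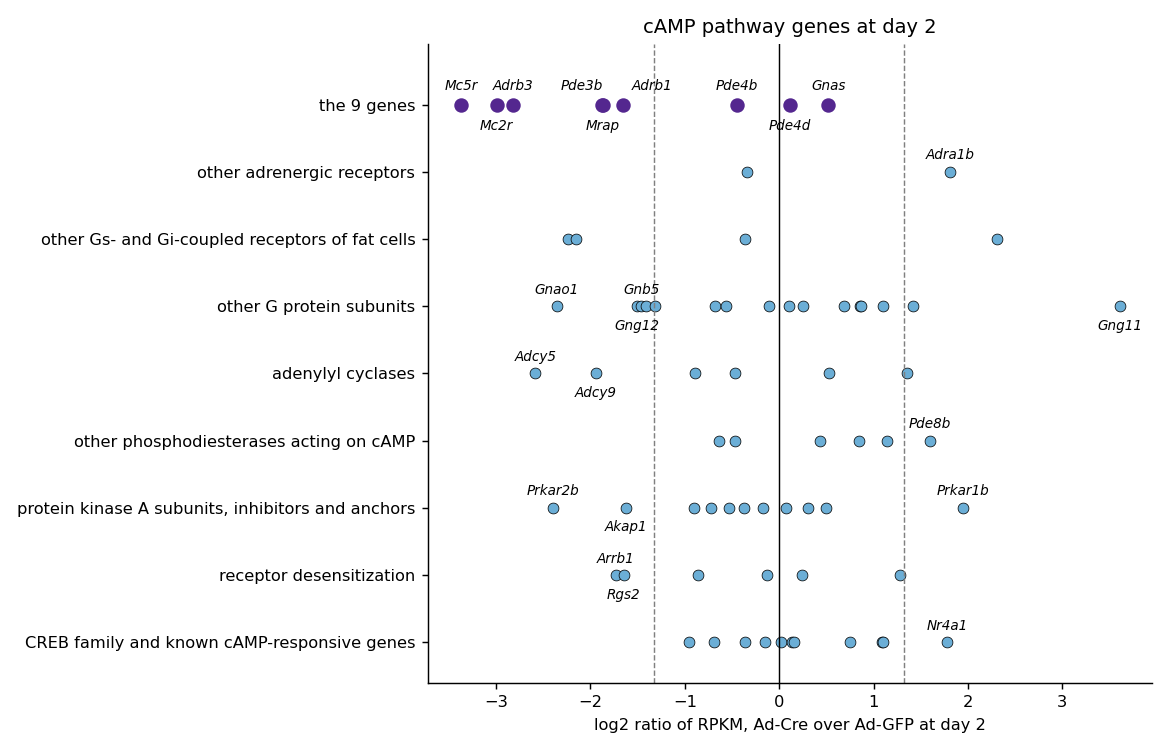
Log2 ratio of RPKM of Ad-Cre over Ad-GFP at day 2 (horizontal axis) for the 9 genes (top, purple) and the expressed genes of 8 lists of the pathway (blue), 1 point per gene and 1 library per condition. Dashed lines mark 2.5-fold. All 9 genes are labelled, and pathway genes are labelled where past that limit with at least 100 reads in the higher library, at most 4 per list. Of 62 pathway genes, 12 lie left of the lower line and 8 right of the upper one, and Mc5r (−3.37) lies left of all of them.

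The 5 genes whose pattern over the 4 libraries was nearest to that of Adrb3, by Euclidean distance of centred log2(RPKM + 0.5) among 11629 genes with at least 100 reads, were Nars2, Adcy9, Rsc1a1, 4930402H24Rik and Oxnad1, at distances of 0.07 to 0.14. The added 0.5 RPKM is larger than the level of Adrb3 in 3 of the 4 libraries (0.0624, 0.0734 and 0.238 RPKM, on 3, 4 and 12 reads), so its ratios are compressed and the nearest genes had smaller ratios of RPKM, such as Nars2 at 0.728 and 4.16 RPKM with Ad-GFP at day 0 and day 2. The likeness therefore depends on that added value and describes 4 numbers per gene.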

How the data were processed

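RNA-Seq of 4 libraries, 1 per condition, was analysed. Reads of 50 bases were processed by the authors with the Illumina Analysis Pipeline, placed on NCBI37/mm9 and counted on RefSeq exons. The submitters' processing notes also name bedtools 2.16 and SICER 1.1, without their role. For 29082 transcripts the authors deposited unnormalized read counts in whole numbers. An RPKM column, scaled by exon length and mapped reads, was deposited beside them. The treatment of reads with several matches is not given in the sources used here.

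Symbols came from a RefSeq gene table (GRCm38.p6), used for names alone, and 97.8% of transcripts had one. Ratios are those of deposited RPKM, with no pseudocount or minimum, and past the limit means over 2.5-fold, a 0 in the denominator counting as past it. Exact binomial 95% intervals of the read ratio used scipy 1.17.1. Against 0 reads the ratio was taken to a floor of 3 reads in that library, leaving out the counting error of the other count. TMM factors came from edgeR 4.0.16 in R 4.3.3 and no edgeR test was run. Length and GC trends were medians of 20 bins in 5 rounds, with GC content from GENCODE vM1 transcripts nearest in length, known for 85.1% of expressed genes. Gene coordinates are spans of GENCODE vM1 genes on NCBI37/mm9, and exon numbers are those of the longest GENCODE transcript of the gene. Windows of 50 bases were matched with blastn 2.17.0 allowing 2 mismatches, and at most 0.459% of the windows of a member matched elsewhere. Python 3.11.15 served for all else, with pandas 2.3.3, numpy 2.4.6 and, for figures, matplotlib 3.10.9. The ratios and intervals were tested on simulated Poisson counts, for genes with at least 100 expected reads in every library. Lower counts, such as those of the receptor genes and Mrap, were not covered by that test.

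The members, the pathway and marker lists, and the settings were chosen with earlier results of these data known. Pathway genes described for a change were drawn from those past 2.5-fold with at least 100 reads in the higher library. This took at most the 4 largest per list and comparison. Adra1b, Adora2b, Gnai1, Gnb4, Gnb5, Gng12, Pde1a, Pde8b, Pde10a, Akap12, Pkia, Arrb1 and Sik1 also met this and are not described above. The alternatives were the sum of deposited counts as denominator, TMM factors, 2-fold and 4-fold limits, 1 RPKM added, at least 20 reads, the nearer bound of the interval, the mean over transcripts, the length and GC trend, and expression in any library. 1 gene of the pathway lists is not reported here.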

Additional observations from a re-analysis of the deposited data

How the results depend on the processing

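No paired analysis was possible because each condition has 1 library, and no replicate could be left out. Depth limits Adrb1, Mrap and every receptor at day 0, which rest on at most 32 reads. The 5 genes higher at day 2 in Ad-GFP cells numbered 4 to 7 under all alternatives run. The 7 in Ad-Cre cells became 2 with 1 RPKM added, 3 with at least 20 reads or at the nearer bound of the interval, and 5 at a 4-fold limit. The count was 8 at a 2-fold limit, with summed deposited counts, TMM factors, the mean over transcripts or the length and GC trend removed. With TMM factors Pde4b was also past the limit. Of the day 0 differences between genotypes, the 1 higher gene became 0 with 1 RPKM added, a 4-fold limit, at least 20 reads or the nearer bound, and the 2 lower genes became 0 with 1 RPKM added, at least 20 reads or the nearer bound. The 6 genes lower in Ad-Cre cells at day 2 became 2 with 1 RPKM added, 3 at a 4-fold limit, 4 at the nearer bound and 5 with the length and GC trend removed. The share of expressed genes higher at day 0 went from 1.27% to 2.08% with expression in any library. Of 150 log2 ratios of the members under 5 alternatives, 110 stayed within their counting interval and 40 moved out of it. Gnas and Pde4b changed sign with the length and GC trend removed (to −0.04 and 0.07), and the cause of that trend was not tested.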
